A study of Mus musculus with 12 samples.

Results

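The arms of miR-199a, miR-199b and miR-214 are mature miRNAs best known from mesenchymal cells such as fibroblasts. They were taken by name from the deposited table of mouse miRNAs, where they are 6 of 1042 rows: mmu-miR-199a-3p, mmu-miR-199a-5p, mmu-miR-199b-3p, mmu-miR-199b-5p, mmu-miR-214-3p and mmu-miR-214-5p, written without the species prefix in what follows. All 6 passed the filter for low reads and were tested among 732 miRNAs. Small RNA (18 to 30 nt) was sequenced in 12 libraries from 5 cell types to compare embryonic stem cells with reprogrammed pluripotent cells. The mouse embryonic fibroblasts (MEFs, 3 libraries, C57B6/129SvJae F1) were the starting cells of all reprogrammed lines. The embryonic stem cells (ESCs, 3 libraries) were of the line E14 and of another background, 129/ola. Induced pluripotent stem cells (iPSCs, 2 libraries) had been made from these MEFs with Oct4, Sox2, Klf4 and c-Myc on inducible lentiviruses. NT-ESCs (2 libraries) were established by nuclear transfer from the same MEFs, and NT-iPSCs (2 libraries) by nuclear transfer from iPSCs. All 3 reprogrammed types carry the C57B6/129SvJae F1 background. The libraries of a type are batches of RNA from 1 cell line. The p-values between 2 types therefore measure the spread between RNA batches and not between lines. The 4 pluripotent types were grown with LIF on irradiated MEFs as feeder cells. Whether feeders were removed before RNA was extracted is not given in the sources used here. Strain and cell type cannot be told apart between ESCs and the other types.

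A miRNA hairpin is cut into an arm from its 5′ side (5p) and an arm from its 3′ side (3p), and either arm can be loaded into Argonaute and repress messenger RNAs that pair with its seed, bases 2 to 8. miR-199a-2 and miR-214 are cut from Dnm3os, a noncoding RNA transcribed across an intron of Dnm3 on the opposite strand and needed for normal skeletal growth in mice. Twist1, a regulator of mesenchyme, drives this transcript, and miR-214 is known to repress the Polycomb methyltransferase Ezh2 in differentiating muscle cells.

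The mature sequences are shown because the seeds tell which rows can act on the same targets and which rows can hold the same reads. They are from RefSeq (GRCm38.p6), 5′ to 3′, with the seed in capitals:
miR-199a-3p: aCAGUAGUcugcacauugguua
miR-199b-3p: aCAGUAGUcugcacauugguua
miR-199a-5p: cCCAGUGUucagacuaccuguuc
miR-214-3p: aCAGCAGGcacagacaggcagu
miR-214-5p: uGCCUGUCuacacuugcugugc
miR-199a-3p and miR-199b-3p have the same 22 bases. miR-214-3p starts with the same 4 bases as these and matches them at 5 of the 7 seed positions, but its seed is a different one. In the RefSeq table only miR-761 shares the miR-214-3p seed, and it had 0 reads in all 12 libraries, which allows at most 0.348 to 0.617 CPM (a miRNA's reads scaled to the same total of miRNA reads in every library), the level of 3 reads. miR-199b-5p is the remaining member. The RefSeq table gave no mature sequence for it, so its seed is not shown. The 5′ side of the Mir199b hairpin below holds the same 7 bases as the miR-199a-5p seed.

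The hairpins are shown to place the arms that the reads were assigned to, with the arms above in capitals:
Mir199a-2: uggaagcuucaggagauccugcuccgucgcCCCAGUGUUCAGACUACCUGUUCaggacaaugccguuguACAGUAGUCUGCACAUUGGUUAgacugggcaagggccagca
Mir214: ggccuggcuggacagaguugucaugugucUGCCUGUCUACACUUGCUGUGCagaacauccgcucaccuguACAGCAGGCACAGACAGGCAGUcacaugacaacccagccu
Mir199b: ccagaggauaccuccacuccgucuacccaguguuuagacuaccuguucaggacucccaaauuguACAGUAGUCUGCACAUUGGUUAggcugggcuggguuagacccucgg
Mir199a-1: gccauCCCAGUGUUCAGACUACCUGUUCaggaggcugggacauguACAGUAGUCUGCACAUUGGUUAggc
In GRCm38.p6, Mir199a-2 (chr1:162217814-162217923, plus strand) and Mir214 (chr1:162223368-162223477, plus strand) lie in exons of Dnm3os, 5444 bases apart. Mir199b (chr2:32318460-32318569, plus strand) lies in an intron of Dnm1 on the opposite strand, and Mir199a-1 (chr9:21496495-21496564, minus strand) in an intron of Dnm2 on the opposite strand. Both miR-199a hairpins carry the same 5p and 3p arms, so their contributions cannot be told apart.

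The deposited values are on the log2 scale of the variance stabilizing transformation (VST), and reads recovered from them summed to 4863365 to 8608689 per library. Levels are given as normalized reads, which are reads divided by the authors' size factor of the library, or as CPM. The size factors were 0.762 to 0.819 in MEFs, 0.887 to 0.999 for ESCs and 1.14 to 1.44 for the reprogrammed types, so the normalized scale places MEFs higher against the other types than CPM does. The cell types carried their labels' markers. The pluripotent list (10 miRNAs of the miR-290 and miR-302 clusters) summed to 0.869 to 9.06 CPM in MEFs, with 3 of the 10 at 0 reads, and to 73662 to 184043 CPM in the pluripotent libraries. The fibroblast and mesenchymal list (20 miRNAs such as miR-143-3p and miR-22-3p, none of them a member) summed to 359858 to 406258 CPM in MEFs, 175554 to 202247 for ESCs and 75094 to 99388 in the reprogrammed types. Most of the MEF sum was miR-21-5p, which averaged 263984 CPM in MEFs, 108150 for ESCs and 20141 to 41244 for the reprogrammed types. Another of the 20, miR-29a-3p, averaged 1166 CPM in MEFs and 15284 to 31414 for the reprogrammed types. The muscle list (4 miRNAs) summed to 106569 to 126969 CPM in MEFs, most of it miR-206-3p, 488.8 to 569.2 for ESCs and 1846 to 2521 for the reprogrammed types. The epithelial list (5 miRNAs) summed to 121.4 to 176.3 CPM in MEFs, 4036 to 5643 for ESCs and 1191 to 2224 for the reprogrammed types. The blood and endothelial list (4) summed to 267.8 to 291.3 CPM in MEFs, 1952 to 2020 for ESCs and 20.4 to 70.3 for the reprogrammed types, and the neural list (2) to 647.9 to 1992 CPM over all libraries.

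The 12 libraries fell into 2 sets by the balance of 5p and 3p arms over all miRNAs. Of 263 hairpins with both arms tested, the difference between arms was called in 62 between MEFs and ESCs (23.6%), but in 197, 194 and 193 when iPSCs (74.9%), NT-ESCs (73.8%) and NT-iPSCs (73.4%) were compared with ESCs (limma, adjusted p under 0.05). Among the reprogrammed types it was called in 0 hairpins for NT-ESCs against iPSCs (0.0%), 0 for NT-iPSCs against iPSCs (0.0%) and 1 for NT-iPSCs against NT-ESCs (0.38%), where 26, 29 and 13 hairpins had an unadjusted p under 0.05. On log2 CPM these 3 counts were 5, 5 and 0, and that for MEFs and ESCs was 117 in place of 62. By the counts on the deposited values, MEF and ESC libraries were placed in 1 set and the reprogrammed libraries in the other. On both scales MEFs and ESCs differed in more hairpins than any pair of reprogrammed types did. Whether the MEF and ESC libraries were handled alike is not given in the sources used here. No cell type is in both, so the handling of the libraries and the cell type cannot be told apart in a comparison across the sets. Comparisons within a set are therefore given first.

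The rows miR-199a-3p and miR-199b-3p held nearly the same number of reads in every library. They were not identical. miR-199a-3p had 2212, 1506 and 1677 reads more than miR-199b-3p in the MEF libraries and 156, 184 and 174 more in the ESC libraries, which is 2.03% to 2.84% of its reads. In the reprogrammed libraries the excess was 8 to 54 reads, or 0.0102% to 0.0259%. The excess thus followed the 2 sets as well. Of 937 rows with reads, 46 were identical to another row in all libraries, and none of the 6 members was among these. The pair of 3p rows is 1 measurement and is counted once in every sum of reads. Counts of rows called take it as 2 of the 6 rows, and the same counts over 5 arms, with the pair taken once, are given beside them.

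miR-199 and miR-214 were higher in MEFs than in ESCs on every arm. miR-199a-3p had 122108, 78994 and 74409 normalized reads in the MEF libraries and 7437, 8817 and 9291 in the ESC libraries. Its partner arm miR-199a-5p had 20671, 23981 and 20295 in MEFs against 1970, 2227 and 1782 in ESCs. The lowest MEF library was thus above the highest ESC library for both arms, by a wide margin. miR-199b-5p had 675.9, 627.5 and 476.2 normalized reads in MEFs and 27.06, 27.03 and 34.66 in ESCs. Whether all of its reads came from the miR-199b hairpin was not tested. miR-214-3p, the more abundant arm of miR-214, had 8556, 5871 and 8809 in MEFs and 1081, 1402 and 2172 in ESCs. miR-214-5p had 2391, 1620 and 1647 in MEFs and 164.6, 212.2 and 169.0 in ESCs. Both arms of miR-214 separated the cell types completely, with the smallest gap at miR-214-3p, where the ESC libraries varied most.

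**Figure D1:**
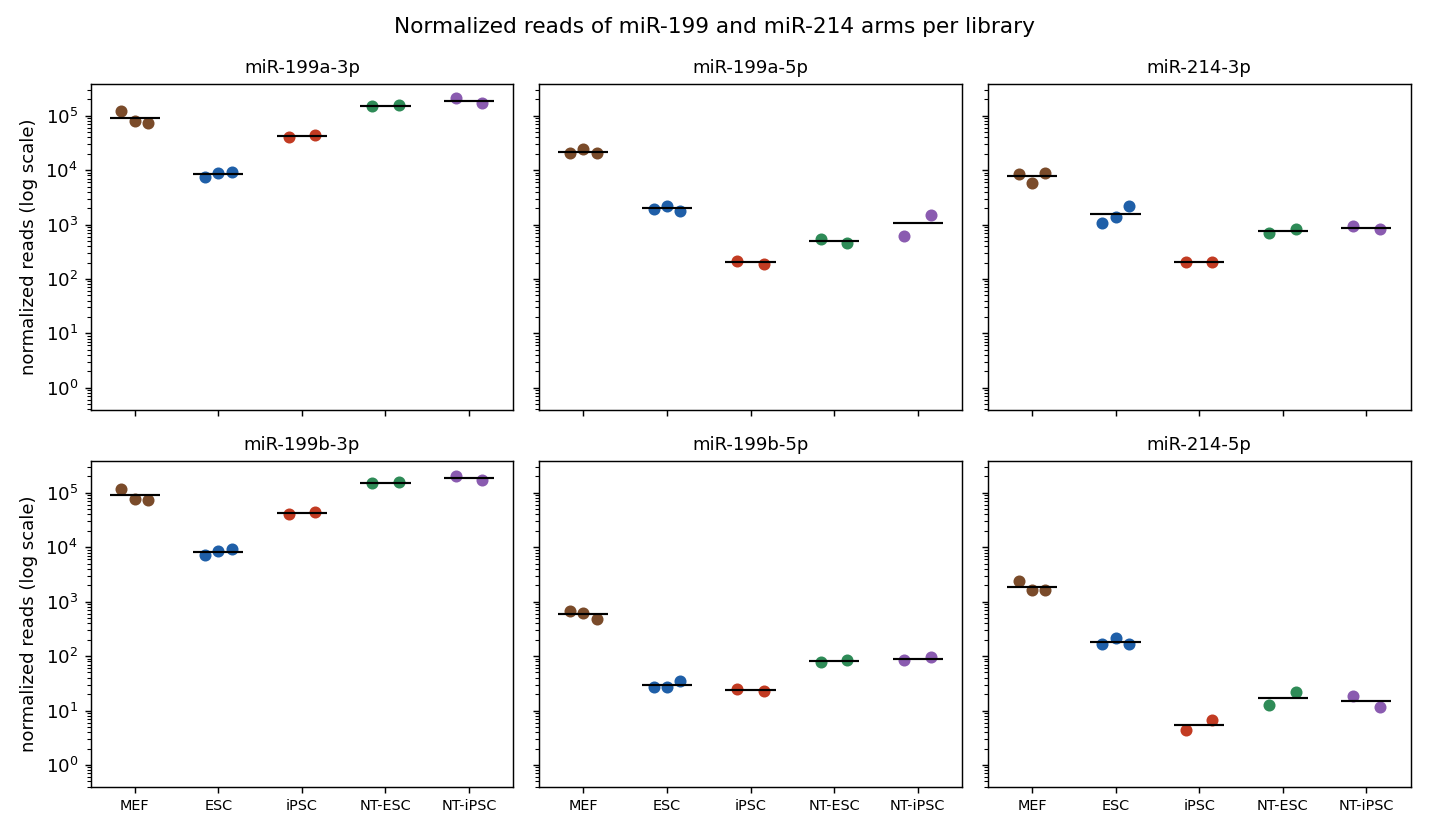
Normalized reads (log scale) of the 6 arms in each of the 12 libraries; each point is 1 library and each line the mean of a cell type. MEFs stand highest for the 5p arms and for miR-214-3p, whereas NT-ESCs and NT-iPSCs stand highest for the miR-199 3p arms.

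In numbers of the test, 6 of 6 rows (5 of 5 arms with the 3p pair taken once) were higher in MEFs, where 79.0% of the 732 miRNAs were called and 39.1% were higher (limma on the deposited values, Benjamini-Hochberg adjusted p under 0.05). The libraries of MEFs and ESCs did not overlap for any of the 6, as for 79.9% of all miRNAs tested. The difference of VST means was 4.29 ± 0.20 (SE; adjusted p = 5.9e-09) for miR-199b-5p, the widest of the 6, and 2.36 ± 0.24 (adjusted p = 3.78e-06) for miR-214-3p, the narrowest. For miR-199a-3p it was 3.40 ± 0.19 (adjusted p = 2.52e-08) and for miR-199a-5p 3.44 ± 0.26 (adjusted p = 3.12e-07), so both arms of miR-199a differed by nearly the same amount. As a ratio of mean normalized reads, MEFs were 10.8-fold higher for miR-199a-3p, 20.1-fold for miR-199b-5p and 4.99-fold for miR-214-3p. On CPM, which puts the median of all miRNAs 0.68 lower in MEFs than in ESCs on the log2 scale, the same ratios were 5.75-fold, 10.8-fold and 2.67-fold. The median difference of the 6 members was 3.40 beside a median of 0.00 over all miRNAs tested.

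The fibroblast and mesenchymal list moved the same way, with 20 of 20 higher in MEFs and a median difference of 1.88 on the deposited values. On log2 CPM 14 of 20 were higher and 0 lower (median difference 0.99), and 4 had a difference below 0. Relative to MEFs, the ESC level of a list member was 27.1% in the median (7.28% to 59.8%), against 9.27% for miR-199a-3p, 9.21% for miR-199a-5p, 4.99% for miR-199b-5p, 20.04% for miR-214-3p and 9.65% for miR-214-5p. On CPM these levels were 17.4%, 17.0%, 9.29%, 37.5% and 18.0% of MEFs, against 50.3% in the median for the list (13.5% to 111.3%). miR-206-3p, the muscle miRNA that was abundant in these MEFs (mean 100098 CPM), stood at 0.186% of the MEF level in ESCs, below all of the values on the normalized scale. The other muscle miRNAs stood at 0.54% (miR-1a-3p) and 0.171% (miR-133a-3p), and miR-133b-3p had 0 reads in ESCs. RNA of the feeder cells was not among the libraries, and its part in the ESC values was not tested. In bulk RNA of this kind, fewer cells that express a miRNA and less of it per cell cannot be told apart.

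Among the reprogrammed types, iPSCs held the least of every arm. miR-199a-3p had 41065 and 44341 normalized reads in the iPSC libraries, 149265 and 157497 in NT-ESCs and 207668 and 172493 in NT-iPSCs. miR-214-3p had 204.8 and 204.4 in iPSCs, 703.1 and 836.2 in NT-ESCs and 938.6 and 812.9 in NT-iPSCs. Each NT library was thus above each iPSC library for both of these arms. The remaining arms were also lowest in iPSCs. miR-199a-5p had 212.2 and 191.2 normalized reads in iPSCs, 544.5 and 454.8 in NT-ESCs and 614.9 and 1496 in NT-iPSCs, the last library standing apart from its partner. miR-199b-5p had 24.96 and 22.71 in iPSCs, 78.27 and 85.72 in NT-ESCs and 84.21 and 94.37 in NT-iPSCs. miR-214-5p was near the limit of detection, with 6 and 9 reads in iPSCs, 18 and 25 in NT-ESCs and 23 and 14 in NT-iPSCs, or 4.41 and 6.59, 12.5 and 21.9, and 18.8 and 11.6 after normalization.

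All 6 rows (5 of 5 arms) were higher in NT-ESCs than in iPSCs, a comparison in which 25.7% of all miRNAs were called and 12.6% were higher (limma, adjusted p under 0.05). All 6 (5 of 5 arms) were also higher in NT-iPSCs than in iPSCs, where 26.5% were called and 13.4% were higher. The iPSC libraries are shared by both comparisons. In NT-ESCs the VST differences were 1.85 ± 0.23 (SE; adjusted p = 0.000371) for miR-199a-3p and 1.90 ± 0.30 (adjusted p = 0.00112) for miR-214-3p, with a range over the 6 of 1.30 to 1.90. In NT-iPSCs they were 2.15 ± 0.23 (adjusted p = 8.43e-05) and 2.09 ± 0.30 (adjusted p = 0.000449), with a range of 1.35 to 2.25. The top of this range was miR-199a-5p, which was at 1.61 without NT-iPSC library 52 and at 2.89 without library 51. The median difference over all miRNAs tested was -0.10 and 0.00 in these comparisons. The libraries did not overlap for any member, as for 68.9% of miRNAs in the first comparison and 63.1% in the second. As ratios of mean normalized reads, miR-199a-3p was 3.59-fold higher in NT-ESCs and 4.45-fold in NT-iPSCs. miR-214-3p was 3.76-fold and 4.28-fold higher. On CPM the ratios were 2.80-fold and 3.05-fold for miR-199a-3p, and 2.92-fold and 2.93-fold for miR-214-3p. The calls of miR-199a-5p and miR-214-5p were less firm. In NT-ESCs miR-199a-5p was no longer called without iPSC library 63 (difference 1.23) or without NT-ESC library 71 (1.17). miR-214-5p in NT-ESCs had adjusted p = 0.0662 without iPSC library 62, 0.0929 without NT-ESC library 72 and 0.0815 with only these groups in the model. In NT-iPSCs, miR-214-5p had adjusted p = 0.0993 without iPSC library 62 and 0.119 without NT-iPSC library 51.

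Of the fibroblast and mesenchymal list, 10 of 20 were higher and 1 lower in NT-ESCs than in iPSCs (median difference 0.83), and 13 of 20 were higher and 0 lower in NT-iPSCs (median difference 1.12). On log2 CPM the counts were 9 higher and 3 lower, and 10 higher and 2 lower. Its summed CPM was 80257 to 88286 in iPSCs, 75094 to 77291 in NT-ESCs and 98271 to 99388 in NT-iPSCs, with no list member at 0. Of the pluripotent list, 3 of 10 were lower and 0 higher in each comparison. miR-206-3p stood at 0.0528% of the MEF level in iPSCs, at 0.145% in NT-ESCs and at 0.209% in NT-iPSCs. The other 3 muscle miRNAs stood higher against MEFs and in no such order, at 4.84%, 4.72% and 5.09% for miR-1a-3p, 2.35%, 1.23% and 1.94% for miR-133a-3p, and 1.40%, 0.949% and 1.78% for miR-133b-3p. The part of feeder or unreprogrammed fibroblasts in these differences was not tested.

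Between the types made by nuclear transfer, 0 of 6 members were called, where 12.8% of all miRNAs were (limma, adjusted p under 0.05). Of the members only miR-199a-5p had an unadjusted p under 0.05. With voom weights on the recovered reads, limma called 172 of 732 miRNAs and 1 member, again miR-199a-5p. The difference of miR-199a-5p, NT-iPSC minus NT-ESC, was 0.95 with a 95% interval of 0.24 to 1.66 (limma, adjusted p = 0.0735). It was 1.59 without NT-iPSC library 51. The VST values were 11.38 in library 51 and 12.66 in library 52, beside a mean of 11.07 in NT-ESCs, so the difference leans on library 52. For miR-199a-3p the difference was 0.30 (-0.20 to 0.81), and for miR-214-3p it was 0.19 (-0.47 to 0.84). Intervals of this width leave room for differences of up to 0.81 and 0.84.

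**Figure D2:**
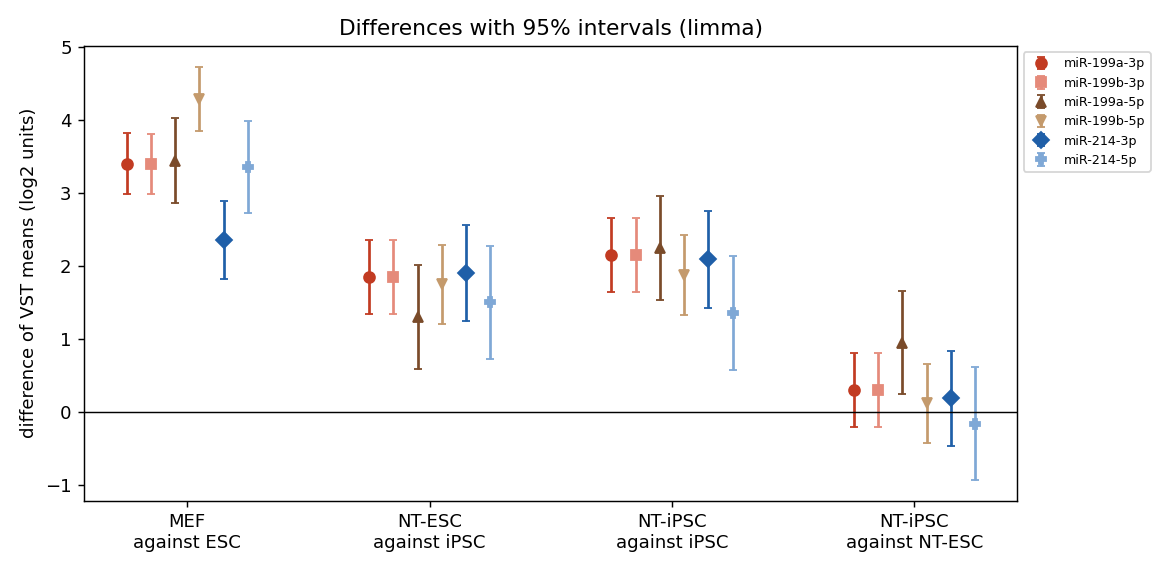
Difference of VST means (log2 units) with 95% intervals from limma for the 6 arms, in the comparisons between cell types of the same library set. All 6 arms lie above 0 in the first 3 comparisons, and 5 of the 6 intervals include 0 for NT-iPSCs against NT-ESCs.

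Across the library sets, the members were called in both directions. Against ESCs, the miR-199 3p arms were higher in each reprogrammed type and miR-199a-5p and both miR-214 arms were lower. In iPSCs the 2 rows called higher were the 3p pair, so 1 of 5 arms was higher and 3 were lower, where 75.8% of all miRNAs were called, 39.8% higher and 36.1% lower. In NT-ESCs 3 rows were higher, or 2 of 5 arms, and 3 lower, with the same 75.8%, 39.8% and 36.1% over all miRNAs. The counts were the same in NT-iPSCs, where 77.6% were called, 41.1% higher and 36.5% lower. For miR-199a-3p the VST difference from ESCs was 2.33 ± 0.21 for the iPSC libraries (SE; limma, adjusted p = 1.2e-06), 4.18 ± 0.21 for NT-ESCs (adjusted p = 9.51e-09) and 4.48 ± 0.21 for NT-iPSCs (adjusted p = 6.24e-09). This amounts to 5.01-fold, 18.0-fold and 22.3-fold more normalized reads. Its partner on the same hairpins, miR-199a-5p, went the other way by -3.30 ± 0.29 (adjusted p = 1.09e-06), -1.99 ± 0.29 (adjusted p = 7.68e-05) and -1.05 ± 0.29 (adjusted p = 0.00698). The last of these was -0.41 and no longer called without NT-iPSC library 51, and -1.69 without library 52. miR-199b-5p differed from both: it was not called in iPSCs at -0.30 (95% interval -0.79 to 0.20, adjusted p = 0.252), where it was 1.24-fold lower in normalized reads and 1.08-fold higher in CPM, and was higher by 1.46 ± 0.22 in NT-ESCs (adjusted p = 0.000106) and by 1.58 ± 0.22 in NT-iPSCs (adjusted p = 5.72e-05).

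miR-214-3p was lower than in ESCs 7.58-fold for iPSCs, 2.02-fold for NT-ESCs and 1.77-fold for NT-iPSCs (adjusted p = 1.85e-06, 0.00756 and 0.0233, limma). The difference in NT-ESCs was -0.83 (adjusted p = 0.0639) without NT-ESC library 71. In NT-iPSCs it was -0.77 with the full data, and between -0.87 and -0.50 with adjusted p of 0.0521 to 0.122 without ESC library 4, NT-iPSC library 51 or NT-iPSC library 52. miR-214-5p was lower by 33.1-fold, 10.6-fold and 11.97-fold (adjusted p = 7.84e-08, 1.97e-06 and 1.3e-06). It was the member with the deepest fall in each reprogrammed type. The fibroblast and mesenchymal list split as well, with 5 of 20 higher and 12 lower in iPSCs, 8 and 10 in NT-ESCs, and 9 and 9 in NT-iPSCs. Markers of other cell types differed from ESCs too. Of the muscle list 3 of 4 were higher in each reprogrammed type, with 1 lower in iPSCs (median differences 3.58 for iPSCs, 3.08 for NT-ESCs and 3.47 for NT-iPSCs). On log2 CPM these medians were 2.37, 1.48 and 1.86. Of the 3 higher miRNAs, miR-1a-3p averaged 178.5 CPM in ESCs and 2148, 1623 and 1541 CPM in the 3 types. The other 2 were near the limit of detection. miR-133a-3p and miR-133b-3p averaged 0.272 and 0 CPM in ESCs and 0.703 to 4.895 CPM in the 3 types. Of the epithelial list 4 of 5 were lower and 1 higher in each type (median differences -1.59, -1.46 and -1.56). The blood and endothelial list had 2 of 4 higher and 2 lower in each, and the neural list 1 of 2 each way. The part of other cell types in the members' differences was not tested.

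Measured against the MEFs from which they were made, the reprogrammed cells held less of 4 arms, while the miR-199 3p arms stood nearer to MEFs or above them. All 6 rows (5 of 5 arms) were called lower in iPSCs, where 87.8% of miRNAs were called, 48.6% higher and 39.2% lower. In NT-ESCs the 3p pair, or 1 of 5 arms, was higher and 4 arms were lower (84.0% of all called, 45.9% higher and 38.1% lower), and likewise in NT-iPSCs (83.1% called, 46.7% higher and 36.3% lower). miR-199a-5p stood at 0.932% of the MEF level in iPSCs, at 2.31% in NT-ESCs and at 4.88% in NT-iPSCs. The last value was 2.84% without NT-iPSC library 52 and 6.91% without library 51. miR-214-3p stood at 2.64%, 9.94% and 11.3%, and miR-214-5p at 0.292%, 0.910% and 0.806%. miR-199b-5p stood at 4.02%, 13.8% and 15.1%. The median over the fibroblast and mesenchymal list was 13.02%, 16.5% and 18.2%, and 4, 5 and 5 of its 20 members were above the MEF level. miR-199a-3p stood at 46.5% of the MEF level in iPSCs, at 167% in NT-ESCs and at 207% in NT-iPSCs. All of these percents are of normalized reads. On CPM, miR-199a-3p stood at 116.7%, 326% and 356% of the MEF level, miR-199a-5p at 2.31%, 4.44% and 8.28% (4.76% without NT-iPSC library 52), miR-199b-5p at 10.04%, 26.7% and 25.65%, miR-214-3p at 6.61%, 19.3% and 19.3%, and miR-214-5p at 0.722%, 1.77% and 1.38%. The list's median on CPM was 32.35%, 32.1% and 31.0%, with 6, 5 and 6 of 20 above the MEF level. The VST difference of miR-199a-3p from MEFs was -1.07 ± 0.21 (SE; limma, adjusted p = 0.000551) for iPSCs, 0.78 ± 0.21 (adjusted p = 0.00498) for NT-ESCs and 1.08 ± 0.21 (adjusted p = 0.00054) for NT-iPSCs. The direction in iPSCs depended on the scaling. On log2 CPM, where the median of all miRNAs was 1.61 higher in iPSCs than in MEFs, miR-199a-3p was 0.24 higher in iPSCs (adjusted p = 0.213). In NT-ESCs the difference was 0.38 (adjusted p = 0.108) with upper quartile scaling.

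**Figure D3:**
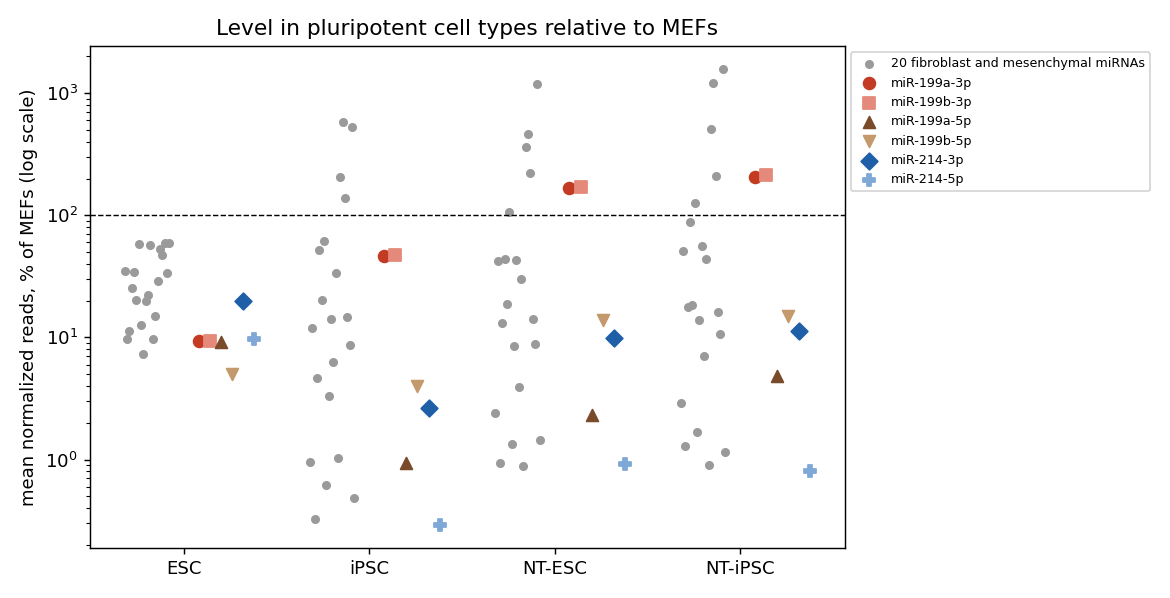
Mean normalized reads in each pluripotent cell type as a percent of the MEF mean (log scale, normalized and not CPM), with the 6 arms as coloured symbols and the 20 fibroblast and mesenchymal miRNAs in grey. The dashed line is the MEF level, which only the miR-199 3p arms exceed among the members, at 167% to 212% in NT-ESCs and NT-iPSCs.

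Ratios between arms within a library do not depend on the size factors. The reads of miR-199a-5p and miR-199b-5p together were 17.5% to 31.2% of the miR-199a-3p reads in MEFs, and they were 19.6% to 26.9% of them in ESCs. They were 0.483% to 0.578% in iPSCs, 0.344% to 0.417% in NT-ESCs and 0.337% to 0.922% in NT-iPSCs. The ratio was thus alike in the somatic and the embryonic stem cells and far lower in all 6 reprogrammed libraries. The log2 ratio was -7.70 ± 0.55 (SD, n = 6) in the reprogrammed libraries and -2.07 ± 0.25 (n = 3) in ESCs (exact permutation test, two-sided, p = 0.0238, which is the smallest it can give, and 0.0397 adjusted over 10 tests). Between 3 MEF and 9 pluripotent libraries the exact test gave p = 0.0727 (adjusted p = 0.104), and the libraries overlapped. These tests pool cell types and take libraries as independent, though those of a type come from a single line. Their p-values therefore do not measure the spread between lines, which holds for every permutation test below.

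miR-214 shifted the same way but less. miR-214-5p reads were 18.7% to 28.0% of miR-214-3p reads in MEFs. They were 7.80% to 15.3% in ESCs and 1.48% to 3.40% in the reprogrammed libraries. MEFs stood above all other libraries in this ratio, with a mean log2 ratio of -2.04 ± 0.33 (SD, n = 3) against -4.68 ± 1.31 (n = 9; two-sided exact permutation test, p = 0.00909, adjusted p = 0.0397). The reprogrammed libraries differed from ESCs by -2.46 (exact permutation p = 0.0238, adjusted p = 0.0397). This rests on 6 to 25 reads of miR-214-5p in each reprogrammed library.

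**Figure D4:**
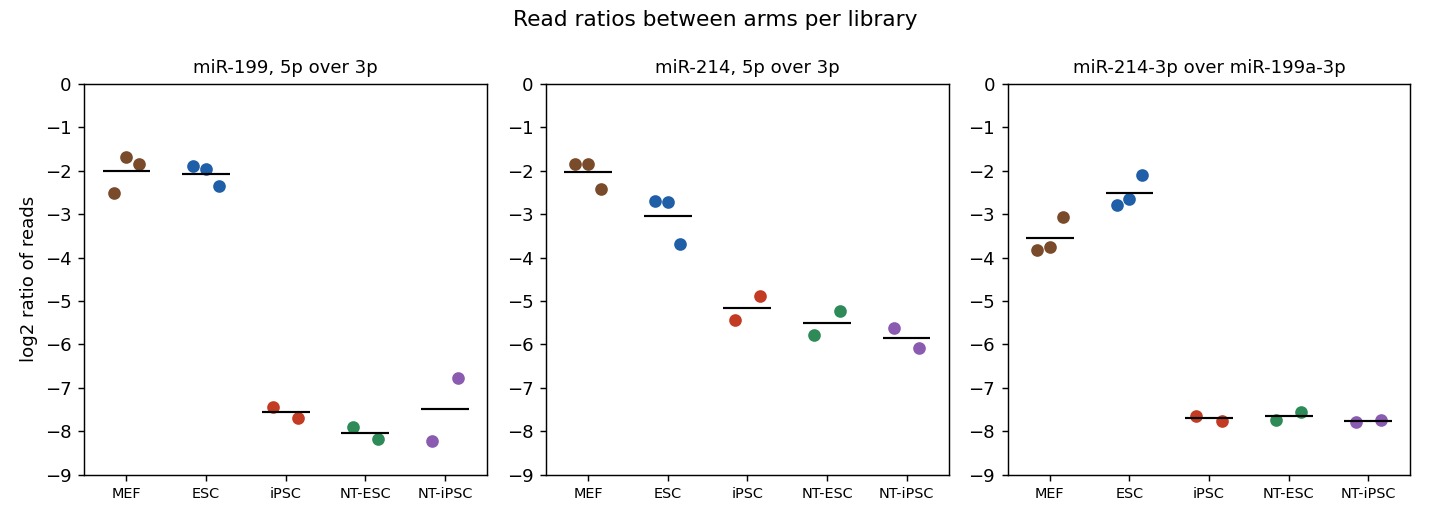
Log2 ratio of reads in each library for the miR-199 arms (both 5p rows over the 3p row counted once), the miR-214 arms and miR-214-3p over miR-199a-3p; points are libraries and lines are means of a cell type. MEF and ESC libraries lie above all 6 reprogrammed libraries in each panel.

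The proportion of miR-214-3p to the miR-199 3p arm differed as well. That arm is shared by Mir199a-1, Mir199a-2 and Mir199b, so the ratio does not describe the neighbouring hairpins Mir199a-2 and Mir214 alone. miR-214-3p reads were 7.01% to 11.8% of miR-199a-3p reads in MEFs and in ESCs 14.6% to 23.4%, but 0.452% to 0.531% in the reprogrammed libraries, a narrow range across 3 cell types. The difference in the log2 ratio between reprogrammed libraries and ESCs was -5.19 (exact permutation p = 0.0238, adjusted p = 0.0397). The 5p arms told another proportion: miR-199b-5p reads were 2.35% to 3.27% of miR-199a-5p reads in MEFs, 1.24% to 1.98% in ESCs and, for the reprogrammed libraries, 6.33% to 18.9% (reprogrammed against ESCs 3.03 on the log2 scale, exact permutation p = 0.0238, adjusted p = 0.0397). Together the members took 1.04% to 1.37% of miRNA reads in MEFs, 0.195% to 0.247% in ESCs, 1.004% to 1.07% in iPSCs, 2.87% to 2.91% in NT-ESCs and 2.91% to 3.41% in NT-iPSCs. The reprogrammed libraries held a larger share than ESCs (exact permutation p = 0.0238, adjusted p = 0.0397), nearly all of it in the 3p reads of miR-199.

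The arm shift was set beside that of all other hairpins with limma on the 5p minus 3p difference of VST values. In miR-199a this difference was lower than in ESCs. It changed by -5.63 (iPSCs), -6.17 (NT-ESCs) and -5.53 (NT-iPSCs) (SE 0.45, largest adjusted p = 2.14e-06, limma). The arm pairs named miR-199a, miR-199b and miR-214 were called in all 3 types. Those of miR-199a and miR-199b use the same 3p reads, so their changes are not separate results. Of the 263 hairpins, 178 were called in all 3 types, 101 of them toward 3p and 77 toward 5p. The mean change of miR-199a was among the larger ones, but 38 hairpins, miR-199a included, were as far from 0 or farther. The change named miR-199b, which sets miR-199b-5p against the shared 3p reads, was -2.66, -2.75 and -2.93. It does not describe the miR-199b hairpin alone. miR-214 changed by -2.04, -2.44 and -2.78. Between MEFs and ESCs the change was 0.04 for miR-199a, 0.89 for miR-199b (adjusted p = 0.0266) and 1.0 for miR-214 (adjusted p = 0.0652). The miR-199b call was lost with only these groups in the model (adjusted p = 0.0779, limma) and without MEF library 14, MEF library 15 or any 1 ESC library (adjusted p = 0.0502 to 0.0931). Among the reprogrammed types none of the 3 arm pairs was called, at adjusted p of 0.567 to 0.99 (limma).

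**Figure D5:**
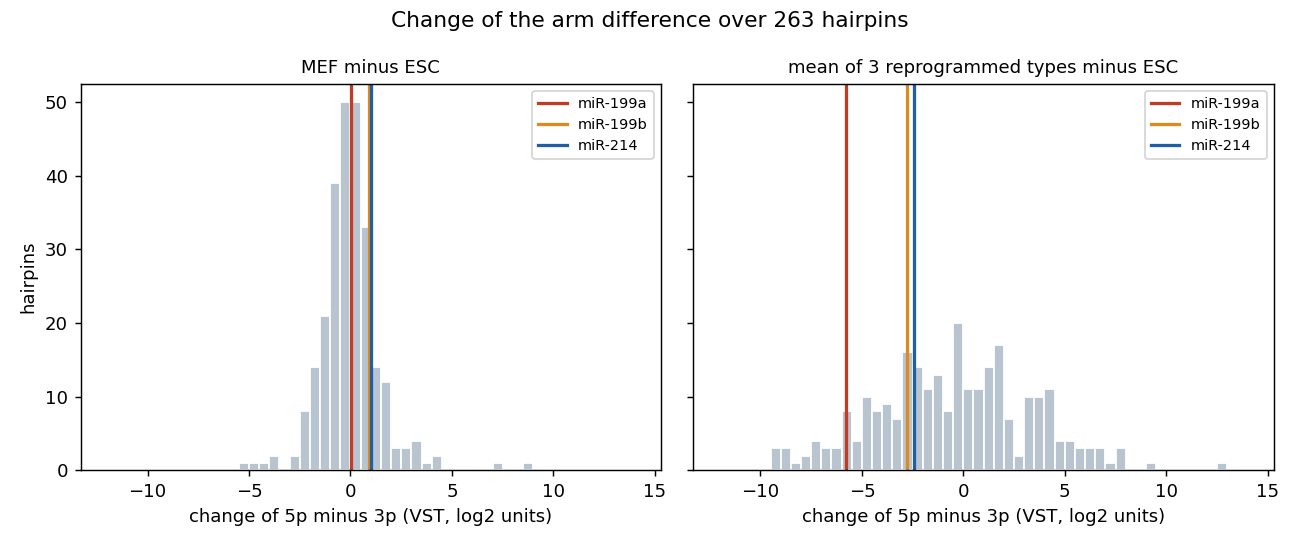
Number of hairpins (of 263) by the change in their 5p minus 3p VST difference (log2 units), for MEFs minus ESCs and for the mean of the 3 reprogrammed types minus ESCs, with the member hairpins as vertical lines. The right distribution is far broader than the left, and the miR-199a line moves from 0.04 to the outer part of the 3p side. The miR-199a and miR-199b lines use the same 3p reads.

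As a description of likeness, with no test, the miRNAs whose VST values followed miR-199a-3p most closely were other ones than those nearest to miR-214-3p. Over all 12 libraries the 5 most like miR-199a-3p were miR-212-5p (Pearson r = 0.964), let-7i-5p (0.963), miR-149-3p (0.947), let-7e-5p (0.947) and miR-196b-3p (0.943). Those most like miR-214-3p were miR-10a-5p (r = 0.988), miR-221-5p (0.987), miR-29a-5p (0.981), miR-145-3p (0.974) and miR-135a-5p (0.974). Over the 9 pluripotent libraries miR-92a-2-5p (r = 0.987), miR-212-5p (0.983), miR-181a-5p (0.981), miR-29a-3p (0.980) and miR-23b-3p (0.980) were nearest to miR-199a-3p. Those nearest to miR-214-3p were then miR-221-5p (0.987), miR-10a-5p (0.970), miR-29a-5p (0.963), miR-182-3p (0.932) and miR-145-3p (0.930). Within the members, miR-214-3p had r = 0.962 with miR-199a-5p and 0.949 with miR-214-5p over the 12 libraries, but 0.0490 with miR-199a-3p. miR-199a-3p and miR-199a-5p, cut from the same hairpins, had r = -0.00478. The points share the 2 library sets and the 5 cell types.

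In that order, miR-199a-3p ran from NT-iPSCs over NT-ESCs, MEFs and iPSCs to ESCs, and each step passed the test except that from NT-iPSCs to NT-ESCs (adjusted p = 0.414, limma), whose libraries did not overlap. The step from MEFs to iPSCs turned round on CPM. miR-199a-5p ran from MEFs over ESCs, NT-iPSCs and NT-ESCs to iPSCs, where the step from NT-iPSCs to NT-ESCs again did not pass (adjusted p = 0.0735). miR-199b-5p ran from MEFs over NT-iPSCs, NT-ESCs and ESCs to iPSCs, with neither the NT types (adjusted p = 0.805) nor ESCs and iPSCs (adjusted p = 0.252) set apart. miR-214-3p had the order of miR-199a-5p, with the NT types not set apart (adjusted p = 0.74). For miR-214-5p NT-ESCs came before NT-iPSCs (adjusted p = 0.831). By mean VST, miR-199a-3p ranked 7 among all miRNAs in NT-iPSCs, 9 in NT-ESCs, 17 in MEFs, 26 in iPSCs and 75 in ESCs.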

How the data were processed

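The authors deposited 1 value per mature miRNA and library on a log2 scale, made from filtered and annotated reads with the size factors and variance stabilization of DESeq. Their processing notes name the build mm8. The miRBase release is not given in the sources used here, nor is the treatment of reads that match several hairpins.

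The transformation was inverted, which gave whole reads within 0.05 read for 100% of 9458 nonzero values. These reads served for depth, filters, ratios and other scalings, and floors of 3 reads cover counting error only. The 95% intervals are from limma and rest on the spread between libraries. Differences were tested on the deposited values in R 4.3.3 with limma 3.58.1: 5 group means, empirical Bayes with a trend, Benjamini-Hochberg adjustment over the 732 miRNAs that reached 10 reads in 2 or more libraries, threshold 0.05. Ratios of reads took a pseudocount of 0.5 reads and two-sided exact permutation tests over libraries, adjusted over 10 tests. The test of arm differences and the list counts on log2 CPM were chosen after seeing the data. Summaries and plots used scipy 1.17.1, pandas 2.3.3, matplotlib 3.10.9 and numpy 2.4.6 under Python 3.11.15, and the fits were tested on simulated data.

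The miRNAs named are the members, those of 6 fixed marker lists, and the 5 most correlated with miR-199a-3p and with miR-214-3p. Members and lists were chosen with earlier results of these data known. Alternatives were other scalings, filters, transformations, voom weights, smaller models, a minimum difference of 1 and each library left out.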

Additional observations from a re-analysis of the deposited data

How the results depend on the processing

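Of 878 recomputed member differences, 845 kept their direction and their side of the threshold, and 6 reversed. Of these 6, 2 had been called, the miR-199 3p arms in iPSCs against MEFs, which on log2 CPM were 0.24 (miR-199a-3p) and 0.28 (miR-199b-3p) higher in iPSCs. The other 4 were not called under either setting: on log2 CPM miR-199b-5p was 0.11 for iPSCs against ESCs and -0.06 for NT-iPSCs against NT-ESCs, and miR-214-5p in the latter comparison ranged from -0.54 to 0.23 with each library left out in turn (above 0 without NT-ESC library 72 or NT-iPSC library 52). The share of reads on the members, MEFs minus pluripotent cells, was 0.70 percentage points with the 10 most abundant other miRNAs left out of the total, against -0.46 (exact permutation p = 0.709 and 0.582). Uncalled arm differences (5p minus 3p) that changed sign with a library left out were those of miR-199a for MEFs against ESCs (range -0.12 to 0.30), NT-iPSCs against iPSCs (-0.68 to 0.87) and NT-iPSCs against NT-ESCs (-0.13 to 1.42), and those of miR-199b for NT-ESCs against iPSCs (-0.21 to 0.03) and NT-iPSCs against NT-ESCs (-0.40 to 0.03). The cause of these was not tested. miR-214-5p in NT-iPSCs against iPSCs was no longer called with voom (adjusted p = 0.0683), on log2 CPM (0.0532) or with only these groups in the model (0.112), and miR-199a-5p not with only these groups (0.0663, limma). miR-214-3p in NT-iPSCs against ESCs was not called with upper quartile scaling (0.0794), no filter (0.055) or only these groups (0.0502, limma). The number of members called between NT-iPSCs and NT-ESCs was 1 with voom and 0 to 1 when a library was left out, and the cause was not tested. Without 1 library, the reprogrammed minus ESC differences ran from -5.81 to -5.52 for the miR-199 5p to 3p ratio, -2.78 to -2.30 for the miR-214 ratio, 2.88 to 3.22 for miR-199b-5p to miR-199a-5p, -5.33 to -4.98 for miR-214-3p to miR-199a-3p, and 1.93 to 2.41 percentage points for the share of reads. Without an ESC library the exact permutation test cannot go below p = 0.0714, so these then missed the threshold. The miR-214 ratio was -2.64 (exact permutation p = 0.0571) with the libraries under 10 reads left out, which leaves fewer libraries. For MEFs against pluripotent cells the miR-199 ratio ran from 3.51 to 4.30, and passed the threshold without MEF library 13, ESC library 2 or ESC library 3. Where both arms needed 100 or more reads throughout a cell type, fewer hairpins were tested. Of these, 112 to 118 had a called arm difference between a reprogrammed type and ESCs. On log2 CPM 117 hairpins had a called difference between MEFs and ESCs. miR-214-5p in NT-ESCs against iPSCs was not called with only these groups (0.0815, limma). The arm difference of miR-199b between MEFs and ESCs had adjusted p of 0.0502 to 0.0931 (limma) without MEF library 14, MEF library 15 or any 1 ESC library, and 0.0779 with only these groups. That of miR-214 had adjusted p = 0.0225 on log2 CPM and 0.0377 with 100 or more reads throughout a cell type (limma). No paired analysis was possible because no pair of groups has a library number in common. Depth limits miR-214-5p most, with 6 to 25 reads in each reprogrammed library. With 2 libraries of 1 line in each reprogrammed type, differences between lines were not measured.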

Other observations

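The 3 hairpins with the largest arm change toward 3p and the 3 with the largest toward 5p were picked out after their values were seen. Averaged over iPSCs, NT-ESCs and NT-iPSCs and set against ESCs, the 5p minus 3p difference changed by -9.35 in miR-140, a miRNA known from cartilage, -9.32 in miR-376a and -9.04 in miR-106a, and by 12.61 in miR-381, 9.22 in miR-301a and 7.77 in miR-540 (VST, log2 units). Each of these 6 was called in all 3 types (limma, adjusted p under 0.05). Between MEFs and ESCs the same hairpins changed by 0.26, 0.67, -5.42, 0.98, 1.53 and 1.44.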
